A study of Homo sapiens with 12 samples.

Results

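The 32 genes described here encode the enzymes that build the sugar donor of N-glycosylation, from the synthesis of dolichol and of the activated sugars to the addition of the last glucose. They were chosen by gene symbol from their place in the pathway, and all 32 were found among the 59276 features of the deposited table. All 32 also passed the filter on low values, which kept the 11939 features with at least 1 TPM in at least 3 libraries. TPM is a length-corrected share of the transcripts in a library, so levels of different genes can be compared on this scale. The 12 RNA-seq libraries, 3 in each of 4 groups, carry the label MM1S, the name of a multiple myeloma line of human origin. One group carries the label day 0. The other groups are day 2, day 3 and day 5 of exposure to NGI-1 at 10 μM. NGI-1 is an inhibitor of the oligosaccharyltransferase (OST) complex. By the labels, the day 0 libraries too have NGI-1 as their treatment. They were taken as the untreated cells of the study, and whether they received the solvent DMSO is not settled by the labels. The libraries are numbered H1 to H3 in the day 0 group, H4 to H6 at day 2, H7 to H9 at day 3 and H10 to H12 at day 5, and per-library values below follow that order. The dose comes from the methods of the study. All libraries came from 1 cell line, no untreated library of a later day was used here, and the 3 comparisons with day 0 share the same 3 libraries. Nothing in the labels says that the 3 libraries of a group came from separate cultures, so the p-values measure the spread between these libraries, which may be technical.

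N-glycans are made as a preformed oligosaccharide on the lipid dolichol phosphate in the membrane of the endoplasmic reticulum. The first sugars (N-acetylglucosamine and mannose) are added on the cytosolic face from UDP-GlcNAc and GDP-mannose, the lipid is flipped, and the chain is completed in the lumen with mannose and glucose carried by dolichol phosphate. The OST complex then moves the finished oligosaccharide to asparagine residues of new proteins, a step used heavily by plasma cells, which secrete large amounts of glycosylated immunoglobulin. The genes below supply the substrate of the complex that NGI-1 inhibits.

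The labelled cell type was checked against markers. Of 10 plasma cell markers, 9 were at or above 1 TPM in every library, among them JCHAIN, TNFRSF17 and XBP1, while CD27 was below 1 TPM in every library. All 4 B cell markers, all 3 fibroblast markers, 3 of 4 T cell markers and 3 of 4 myeloid markers were below 1 TPM in every library, and so were 2 of 3 erythroid markers. CD3E, a T cell gene, was at 2.75 to 3.32 TPM at day 0 and 5.06 to 7.14 TPM at day 2. The summed TPM of the plasma cell markers was 11997 to 14140 at day 0, 19036 to 22241 at day 2, 25498 to 28391 at day 3 and 19920.0 to 21182 at day 5. Most of this sum was JCHAIN, at 9697 ± 1001 TPM at day 0 and 17339 ± 538 TPM on day 5 (SD, n = 3). The plasma cell markers lower on day 5 than at day 0 were XBP1 (1547 ± 83.5 and 366 ± 74.7 TPM), SDC1 (496 ± 17.3 and 144 ± 18.8), MZB1 (255 ± 17.5 and 121 ± 10.1), IRF4 (192 ± 19.2 and 93.0 ± 32.2) and CD38 (45.9 ± 4.23 and 17.6 ± 3.00, SD, n = 3). Besides JCHAIN, those with a higher mean on day 5 were TNFRSF17 (577 ± 28.5 and 2087 ± 39.5 TPM), SLAMF7 (156 ± 4.52 and 203 ± 31.1) and PRDM1 (106 ± 11.2 and 130 ± 23.7, SD, n = 3). The summed TPM of the myeloid markers was 5.17 to 5.91 at day 0 and 0.662 to 0.716 at day 5. The summed TPM of the T cell markers lay between 2.81 and 3.38 at day 0 and between 3.40 and 7.22 in the treated libraries. Summed over the epithelial markers, of which KRT8 and KRT18 were above 1 TPM in every library, it was 14.5 to 18.3 at day 0, 23.4 to 26.5 at day 2 and 6.44 to 9.70 at day 5. The part of these transcripts in the results was not tested. MM1S cells are known to make a lambda light chain and to carry a translocation of MAF. The most abundant feature at day 0 was instead IGKC, the kappa constant gene, at 26953, 23747 and 25082 TPM. The lambda constant gene IGLC1 was at 507 to 560.1 TPM and IGLC2 at 2.09 to 3.44 TPM. MAF was at 8.46 to 9.31 TPM, FGFR3 at 265 to 301 TPM and NSD2 at 83.3 to 89.5 TPM. These genes were looked at after the data were seen. The cells are therefore called by their label only.

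Depth was above 60 M read pairs per library by the labels, but TPM keeps no read counts, so the counting error behind a value is unknown. Within groups, Pearson's r between libraries across all features lay between 0.985 and 0.992, and features are not independent replicates. Library H12 of day 5 stood apart from H10 and H11 in these genes, with a median absolute log2 difference over the members of 0.386 and 0.238, against 0.170 between H10 and H11. Library H8 differed from the other day 3 libraries by 0.179 and 0.194, against 0.107 between those. The composition of the libraries moved with time. Cytoplasmic ribosomal protein genes (80 genes) took 28.8% ± 0.545 of the TPM at day 0, 33.8% ± 0.317 at day 2, 42.7% ± 2.11 at day 3 and 48.6% ± 0.872 on day 5 (SD, n = 3). The 37 mitochondrially encoded genes rose from 9.95% ± 0.702 to 14.2% ± 0.642 (SD, n = 3). The median log2 fold change of all 11939 features was -0.18 at day 2, -0.73 at day 3 and -0.99 at day 5. All results are therefore given on the deposited scale and after rescaling, in which each library was divided by 1 factor that centred the log2 values of 5433 features of at least 10 TPM on average. The factors ran from 0.573 at day 5 to 1.505 at day 0. In bulk RNA, fewer cells of a kind and less RNA per cell cannot be told apart.

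From day 3 on, most of these genes were called lower on the deposited scale, and so were most of all tested features. After rescaling, most of the 32 were not called lower. On the deposited scale limma called 3 of the 32 genes lower and 2 higher at day 2, against 23.2% lower and 8.04% higher of all tested features. A call requires an adjusted p below 0.05 and a log2 fold change above 0.5 in size. The counts at day 3 were 24 lower (75.0%) and 2 higher, with 61.5% and 7.59% of all features. Those at day 5 were 28 lower (87.5%) and 2 higher (6.25%), with 69.8% and 7.73% of all features. The median log2 fold change of the 32 genes was -0.22, -0.68 and -1.18 on the 3 days, against the -0.18, -0.73 and -0.99 of all features. All 3 treated libraries lay below all 3 day 0 libraries for 16 genes at day 2, 27 at day 3 and 28 at day 5, and above them for 6, 3 and 2 genes. The same was not counted over all features, whose median also fell, so these numbers are not read as a trait of the 32 genes.

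After rescaling, calls were made in both directions at day 3 and day 5. The counts were 0 lower and 5 higher at day 2 (11.4% and 12.9% of all features). Day 3 had 9 lower and 5 higher (24.2% and 23.9%), and day 5 had 11 lower and 7 higher (26.9% and 27.5%). At day 2, 3 genes had a lower level at an unadjusted p under 0.05 from limma. The median of the 32 genes was then -0.0038, 0.14 and -0.11, against 0.013, -0.027 and -0.019 for all features. At day 5 the genes called lower on both scales were ALG3, ALG9, DOLPP1, DPAGT1, DPM2, GFPT1, GMPPA, GMPPB, GNPNAT1, NUS1 and PMM2, and those called higher on both were ALG14 and DPM3. MPDU1, PMM1 and UAP1 were called lower on the deposited scale and higher after rescaling, so no direction is given for them relative to the library. The moderated F test over the 4 groups passed at an adjusted p below 0.05 for 31 of 32 genes on the deposited scale, against 90.1% of all features, with ALG13 as the exception.

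**Figure D1:**
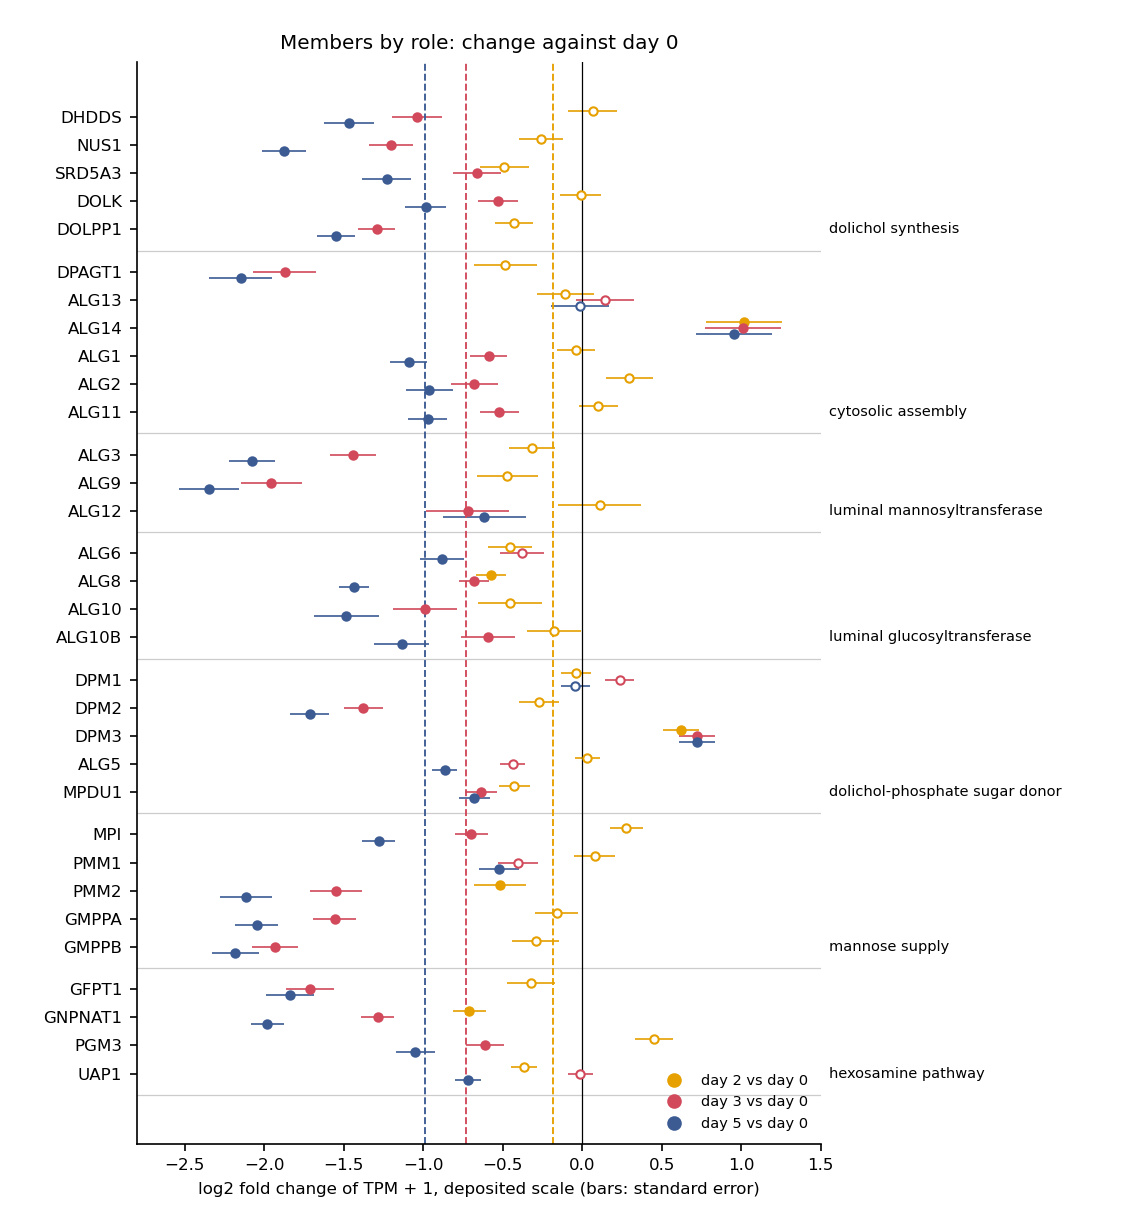
Log2 fold change (x axis, log2 of TPM + 1) of each of the 32 genes, grouped by role, at day 2, day 3 and day 5 against day 0, with standard errors. Filled points were called, open points were not, and the dashed lines are the medians of all 11939 features (-0.18, -0.73 and -0.99). ALG14 and DPM3 lie to the right of 0 on all 3 days, and ALG9 lies furthest to the left at day 5, at -2.35.

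To set the levels beside the sequence in front of these genes, the 300 bases around the RefSeq start of 31 of the 32 genes (250 before it and 50 from it on, GRCh38.p14) were searched for motifs on both strands. ALG10 had no entry. ERSE, the endoplasmic reticulum stress element (CCAAT, any 9 bases, CCACG), was found in 0.081% of 27305 promoters, and among these genes in ALG12 alone. The related ERSE-II (ATTGG, any 1 base, CCACG) was found in 0.055% of all promoters and in none of the 31. UPRE, the unfolded protein response element (TGACGTGG), was found in 0.795% of all and in DHDDS alone. The E-box CACGTG was found in 7.435% of all promoters and in 6 of the 31 (19.355%), namely ALG1, DHDDS, DOLK, GMPPA, NUS1 and SRD5A3. The CCAAT box, whose letters also open ERSE, was found in 35.697% of all and in 14 of the 31 (45.161%). A match is a description of letters and not a measured binding site. Printed here 5′ to 3′ on the strand of the gene are the ALG12 window (chr22:49918389-49918688, minus strand) for its ERSE, the DHDDS (chr1:26432071-26432370, plus strand) and GMPPA (chr2:219498641-219498940, plus strand) windows for their E-boxes, and the windows of ALG14 (chr1:95072902-95073201, minus strand) and DPM3 (chr1:155140482-155140781, minus strand), the 2 genes called higher on every day, which held none of the 5 motifs. Some genes that fell, among them ALG3, ALG9, DPAGT1 and PMM2, also had windows with none of the 5 motifs. Capitals mark the ERSE ends in ALG12 (first base at -134 from the start), the E-boxes in DHDDS (at -204 and -167) and GMPPA (at -12), and the UPRE of DHDDS, which reads on the opposite strand (leftmost base at -7).
ALG12: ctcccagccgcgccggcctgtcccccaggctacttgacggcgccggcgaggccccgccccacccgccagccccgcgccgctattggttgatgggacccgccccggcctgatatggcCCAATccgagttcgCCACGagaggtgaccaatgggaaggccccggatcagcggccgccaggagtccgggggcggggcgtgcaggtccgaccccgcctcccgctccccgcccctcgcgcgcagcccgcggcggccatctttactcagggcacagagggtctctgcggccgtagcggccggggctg
DHDDS: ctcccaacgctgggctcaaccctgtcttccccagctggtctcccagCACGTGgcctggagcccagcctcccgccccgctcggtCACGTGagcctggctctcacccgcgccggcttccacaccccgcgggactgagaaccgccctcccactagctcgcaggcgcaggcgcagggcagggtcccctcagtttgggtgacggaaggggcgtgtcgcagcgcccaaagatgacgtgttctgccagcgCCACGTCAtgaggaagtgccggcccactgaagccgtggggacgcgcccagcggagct
GMPPA: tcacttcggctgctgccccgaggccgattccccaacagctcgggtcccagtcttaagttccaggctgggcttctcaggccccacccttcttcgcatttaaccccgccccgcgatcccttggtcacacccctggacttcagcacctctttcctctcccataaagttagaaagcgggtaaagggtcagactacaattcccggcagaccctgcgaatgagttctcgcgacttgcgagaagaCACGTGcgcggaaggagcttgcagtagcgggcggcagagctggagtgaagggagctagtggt
ALG14: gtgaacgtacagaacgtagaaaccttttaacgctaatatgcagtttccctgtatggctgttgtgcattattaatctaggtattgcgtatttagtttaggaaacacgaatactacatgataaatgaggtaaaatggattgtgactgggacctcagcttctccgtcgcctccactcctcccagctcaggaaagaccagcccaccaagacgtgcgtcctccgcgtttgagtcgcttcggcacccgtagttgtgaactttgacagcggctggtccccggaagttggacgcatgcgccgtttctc
DPM3: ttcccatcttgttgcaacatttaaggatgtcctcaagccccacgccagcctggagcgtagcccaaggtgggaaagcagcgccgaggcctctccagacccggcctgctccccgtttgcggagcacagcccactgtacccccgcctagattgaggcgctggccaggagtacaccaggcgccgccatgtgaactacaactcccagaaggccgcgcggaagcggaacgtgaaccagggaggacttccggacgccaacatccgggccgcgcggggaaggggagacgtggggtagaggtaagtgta

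All 5 genes of dolichol synthesis and recycling were called lower at day 3 and day 5, when 61.5% and 69.8% of all features were. None was called at day 2, where limma gave 2 lower at an unadjusted p under 0.05. After rescaling DOLPP1 alone of the 5 was called lower at day 3, and DOLPP1 and NUS1 at day 5. NUS1 and DHDDS encode the subunits of the cis-prenyltransferase, which makes the long polyprenyl chain of dolichol. NUS1 (GRCh38, chromosome 6 from 117675502 to 117710640 on the plus strand) was at 47.8, 56.1 and 49.7 TPM in the 3 day 0 libraries, 45.5, 40.5 and 42.0 at day 2, 22.8, 23.9 and 18.6 at day 3, with 10.8, 13.0 and 16.4 at day 5. Each later group lay wholly below the one before it. In log2 units the change against day 0 was -0.26, -1.20 and -1.87, with a standard error of 0.138 and an adjusted p of 2.16e-08 from limma at day 5, and it was -0.028, -0.36 and -0.70 after rescaling. DHDDS (chromosome 1 from 26432282 to 26471294 on the plus strand) was at 41.1, 39.6 and 41.2 TPM at day 0, 41.6, 43.02 and 43.1 at day 2, 18.3, 23.1 and 16.9 at day 3, with 10.4, 15 and 17.7 at day 5. It did not fall by day 2, where all 3 libraries lay just above those of day 0. Against day 0 the log2 fold change was 0.066, -1.04 and -1.47, and 0.29, -0.20 and -0.29 after rescaling, where it was not called on any day.

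The other genes of this role complete and recycle the lipid. SRD5A3 encodes a polyprenol reductase, and fell from 17.2 ± 1.49 TPM at day 0 to 6.81 ± 1.45 TPM on day 5 (SD, n = 3). At day 2 its log2 fold change was -0.49, just under the threshold for a call. DOLK, the dolichol kinase, was the lowest of the 5 at day 0 with 7.26, 7.36 and 7.39 TPM, and stood at 3.42, 2.94 and 3.30 TPM at day 5. Its day 2 libraries, at 5.93, 8.43 and 7.69 TPM, lay on both sides of day 0. DOLPP1, a dolichyl pyrophosphate phosphatase that recycles the carrier, was at 10.3, 10.5 and 10.5 TPM at day 0, 7.41, 7.63 and 7.38 at day 2, 3.37, 3.61 and 4.02 at day 3, with 2.41, 3.07 and 3.27 at day 5. Its groups did not overlap day 0 on any day, and the log2 fold changes were -0.43, -1.29 and -1.55. The day 3 call of DOLK was lost without library H9, at -0.50.

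In cytosolic assembly, 4 of 6 genes were called lower at day 3 and day 5 (61.5% and 69.8% of all features), ALG14 was called higher on all 3 days, and ALG13 was not called on any day. DPAGT1 (GRCh38, chromosome 11 from 119096503 to 119108331 on the minus strand) encodes the transferase that commits dolichol phosphate to the pathway by adding the first GlcNAc phosphate. It was at 51.96, 37.2 and 44.6 TPM at day 0, 29.04, 33.0 and 32.1 at day 2, 9.50, 14.3 and 10.7 at day 3, with 7.597, 7.56 and 13.4 at day 5. All later libraries lay below day 0, and library H12 was the highest of day 5. The fitted log2 changes were -0.48, -1.87 and -2.15 (standard error 0.198), with an adjusted p of 0.0620 at day 2 and 1.97e-07 at day 5 from limma, and -0.25, -1.04 and -0.99 after rescaling. At day 2 it was called without library H2, at -0.60. C2CD2L overlaps DPAGT1 on the other strand and fell from 11.3 to 12.6 TPM at day 0 to 2.10 to 3.30 TPM at day 5. Whether the libraries kept the strand is not given in the sources used here, and reads of overlapping genes cannot then be told apart. Of the 32 genes, 23 overlap a gene on the opposite strand and 7 one on the same strand in GENCODE release 29.

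ALG13 and ALG14 encode the catalytic and the membrane subunit of the transferase that adds the second GlcNAc. ALG14 (chromosome 1 from 94974407 to 95072945 on the minus strand) was low, at 1.09, 3.36 and 2.08 TPM at day 0, and was at 4.82, 6.90 and 4.06 TPM at day 2, 5.03, 4.45 and 6.001 at day 3, with 5.45, 5.45 and 3.94 at day 5. All 9 treated libraries lay above the highest day 0 library, and the day 0 libraries differed by a factor of about 3 among themselves. The log2 fold change was 1.02, 1.01 and 0.96 (standard error 0.239, adjusted p = 0.00372, 0.00152 and 0.00198 from limma), and 1.09, 1.61 and 1.87 after rescaling. ALG13 (chromosome X from 111665811 to 111760649 on the plus strand) was at 18.0, 14.9 and 21.0 TPM at day 0, 17.1, 13.6 and 19.2 at day 2, 23.2, 15.5 and 21.5 at day 3, with 20.4, 14.4 and 18.6 at day 5. Every treated group overlapped day 0. This gave log2 fold changes of -0.11, 0.14 and -0.013 on the deposited scale, and after rescaling it was called higher at day 3 and day 5, at 0.96 and 1.15.

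The 3 cytosolic mannosyltransferases, ALG1 for the first mannose and ALG2 and ALG11 for those that follow, were not called at day 2 and were called lower at day 3 and day 5. ALG1 fell from 31.6 ± 2.88 TPM to 14.4 ± 2.19 TPM on day 5 (SD, n = 3). ALG1L13P, an ALG1-like pseudogene, was at 3.78 to 4.71 TPM at day 0 and 0.815 to 1.66 TPM at day 5, and reads could be split between them. ALG2 was at 32.7, 37.5 and 33.9 TPM at day 0, 44.1, 41.0 and 43.3 at day 2, 19.8, 25.7 and 18.9 at day 3, with 14.5, 15.8 and 22.5 at day 5. All day 2 libraries lay above day 0 and all later ones below. The log2 fold change of ALG2 was 0.30, -0.68 and -0.96, and after rescaling ALG2 was called higher at day 2, at 0.52. ALG11 was at 12.9 ± 1.15 TPM at day 0, 13.9 ± 1.553 at day 2 and 6.08 ± 0.446 on day 5 (SD, n = 3). The day 3 call of ALG11, at -0.52, was lost without library H3 or H9, at -0.46 and -0.45. None of the 3 mannosyltransferases was called lower after rescaling.

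The luminal mannosyltransferases held the largest fall of the 32 genes at day 5, that of ALG9. Summed over ALG3, ALG9 and ALG12, the TPM went from 94.5 ± 5.97 at day 0 to 74.4 ± 5.21, 31.6 ± 7.45 and 20.9 ± 3.53 on the 3 days (SD, n = 3). ALG9 (GRCh38, chromosome 11 from 111782195 to 111871581 on the minus strand), which adds mannose at 2 positions of the chain, was at 21.6, 25.2 and 21.9 TPM at day 0, 16.9, 17.2 and 14.5 at day 2, 3.95, 6.76 and 5.07 at day 3, with 3.32, 2.78 and 5.31 at day 5. The treated libraries were below day 0 throughout, and day 3 and day 5 overlapped each other. On the deposited scale the log2 fold change was -0.47, -1.95 and -2.35 (standard error 0.191, adjusted p = 5.61e-08 at day 5 from limma), and -0.25, -1.16 and -1.27 after rescaling. ALG3 (chromosome 3 from 184242301 to 184249548 on the minus strand), which adds the first mannose in the lumen, was at 72.9, 59.7 and 73.5 TPM at day 0, 52.5, 57.4 and 54.3 at day 2, 20.4, 31.9 and 22.9 at day 3, with 13.8, 15.7 and 17.0 at day 5. No group of ALG3 overlapped another. limma put the log2 fold change at -0.32, -1.44 and -2.08, and -0.087, -0.59 and -0.89 after rescaling.

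ALG12 adds a mannose between the steps of ALG9. On the deposited scale it was called lower at day 3 and day 5, as ALG3 and ALG9 were. Unlike them, it was not called after rescaling. It was at 2.87, 2.71 and 2.99 TPM at day 0, 2.17, 5.73 and 2.37 at day 2, 1.37, 1.35 and 1.30 at day 3, with 0.882, 1.39 and 2.55 at day 5. The second library of day 2, H5, was the highest of all 12 and H12 the highest of day 5, and all libraries of day 2, day 3 and day 5 other than H5 lay below day 0. Its log2 fold change was 0.11, -0.72 and -0.61 (standard error 0.262). The day 5 call, with an adjusted p of 0.0412 from limma, was lost without any 1 of the libraries H1, H2, H3, H9, H10 and H11, at -0.64 to -0.41, and the day 3 call without H3 or H9, at -0.70 and -0.71. CRELD2, an endoplasmic reticulum stress gene, overlaps ALG12 on the other strand. CRELD2 was at 13.3, 13.5 and 15.02 TPM at day 0, 21.1, 25.7 and 23.4 at day 2, 9.80, 9.76 and 7.38 at day 3, with 5.82, 7.82 and 9.73 at day 5. Its day 2 libraries lay above and its later ones below day 0, and its part in the ALG12 values was not tested.

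The luminal glucosyltransferases ALG6, ALG8 and ALG10, with the ALG10 paralog ALG10B, add the glucoses that end the chain. All 4 were called lower at day 5, against 69.8% of all features, and after rescaling none was called at any of the 3 days. ALG8 (GRCh38, chromosome 11 from 78100936 to 78139660 on the minus strand), for the second glucose, was at 62.3, 65.6 and 63.2 TPM at day 0, 48.2, 40.2 and 39.4 at day 2, 37.6, 40.4 and 40.2 at day 3, with 23.9, 21.6 and 23.3 at day 5. It was already called lower at day 2, and its levels at day 2 and day 3 overlapped. Against day 0 the log2 fold change was -0.57, -0.68 and -1.43 (standard error 0.0931, adjusted p = 2.54e-04 at day 2 from limma). ALG6, for the first glucose, was at 25.5 ± 2.65 TPM at day 0, 18.4 ± 2.79 at day 2, 19.3 ± 1.58 at day 3 and 13.4 ± 2.03 on day 5 (SD, n = 3), and was called at day 5 alone. At day 2 ALG6 was called without any 1 of the libraries H1, H4 and H6, at -0.53 to -0.52. ALG10 and ALG10B are nearly identical copies between which reads can be split, and their values are uncertain for this reason. ALG10 fell from 9.45 ± 1.501 to 2.82 ± 1.10 TPM and ALG10B from 6.49 ± 0.952 to 2.40 ± 0.297 TPM (SD, n = 3). The day 3 call of ALG10B, at -0.59, was lost without library H3 or H7, at -0.50 and -0.49.

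The donors of dolichol-phosphate sugars were the role whose summed TPM was nearest to day 0 at day 5. It was 472 ± 12.3 at day 0, 501 ± 23.5 at day 2, 517 ± 8.31 at day 3 and 455 ± 14.1 on day 5 (SD, n = 3), so that the sum at day 5 was 0.963 of that at day 0, against 0.221 for the luminal mannosyltransferases. Behind the sum were genes that moved in opposite directions. DPM1, DPM2 and DPM3 encode the catalytic, a regulatory and the tethering subunit of dolichol-phosphate-mannose synthase. DPM1 (GRCh38, chromosome 20 from 50934867 to 50958555 on the minus strand), the second most abundant of the 32 genes, was at 211, 239.7 and 232 TPM at day 0, 229, 193 and 244 at day 2, 281, 249.9 and 273 at day 3, with 237, 210.0 and 216 at day 5. Its libraries overlapped day 0 at day 2 and day 5 and lay above at day 3. The fitted log2 changes were -0.039, 0.24 and -0.043, not called on any day, and 0.19, 1.10 and 1.18 after rescaling, where it was called higher at day 3 and day 5.

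DPM3 (chromosome 1 from 155139891 to 155140595 on the minus strand) was called higher on every day under both scalings. It was at 100.3, 85.9 and 104 TPM at day 0, 146, 154 and 146 at day 2, 155, 170.2 and 155 at day 3, with 130.3, 175 and 178 at day 5. All 9 treated libraries lay above the 3 of day 0. As log2 fold changes these were 0.62, 0.72 and 0.72 (standard error 0.113, adjusted p = 6.03e-04, 4.73e-05 and 3.81e-05 from limma), and 0.85, 1.58 and 1.94 after rescaling. DPM2 (chromosome 9 from 127935099 to 127938484 on the minus strand) was at 47, 37.4 and 43.4 TPM at day 0, 34.0, 35.8 and 35.1 at day 2, 14.6, 16.4 and 16.3 at day 3, with 9.99, 13.0 and 14.1 at day 5. It went the other way from DPM3, with every treated library below day 0. Its log2 fold change was -0.27, -1.38 and -1.71, and -0.045, -0.54 and -0.54 after rescaling. ALG5, the synthase of dolichol-phosphate-glucose, was at 60.9 ± 1.73 TPM at day 0, 62.3 ± 2.69 at day 2 and 33.0 ± 1.40 on day 5 (SD, n = 3) and was called lower at day 5 alone. MPDU1, which is needed for the use of both dolichol-phosphate sugars, went from 44.7 ± 3.25 to 33.0 ± 1.12, 28.4 ± 1.65 and 27.6 ± 2.99 TPM (SD, n = 3), with log2 fold changes of -0.43, -0.64 and -0.68.

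**Figure D2:**
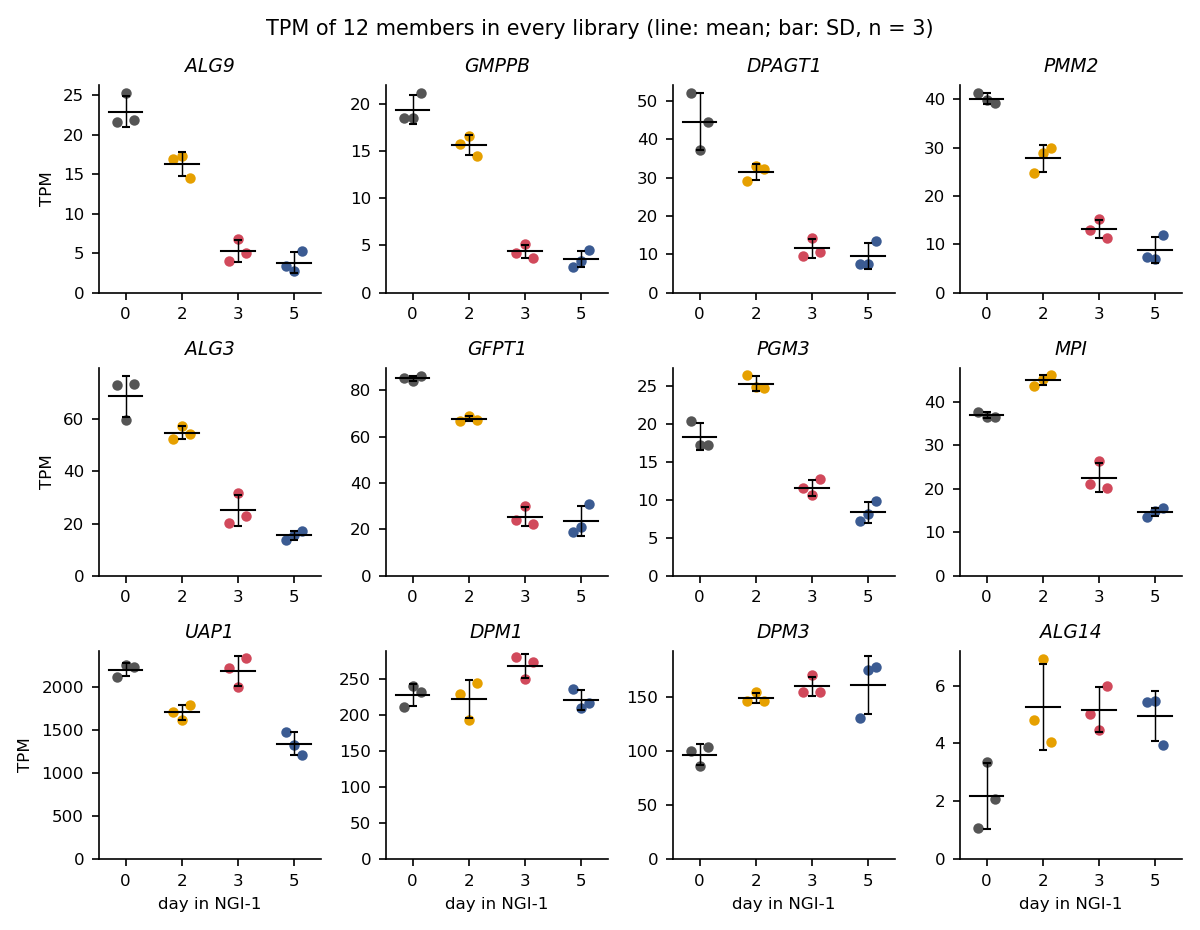
TPM (y axis, from 0) of 12 of the genes in every library by day in NGI-1, with the mean as a line and the SD (n = 3) as a bar. On the deposited scale ALG9, GMPPB, DPAGT1, ALG3 and GFPT1 were called lower from day 3 on, and PMM2 from day 2 on. PGM3 and MPI were above day 0 at day 2 and below it later, and all treated libraries of DPM3 and ALG14 lay above day 0.

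All 5 genes of mannose supply were called lower at day 5, against 69.8% of all features. After rescaling 3 were called lower and PMM1 higher, at 0.56. GMPPA, GMPPB and PMM2 were called lower on both scales at day 3 and day 5. GMPPA and GMPPB encode the regulatory and the catalytic subunit of GDP-mannose pyrophosphorylase. GMPPB (GRCh38, chromosome 3 from 49716844 to 49723951 on the minus strand) was at 18.5, 18.5 and 21.1 TPM at day 0, 15.7, 16.6 and 14.5 at day 2, 4.23, 5.13 and 3.72 at day 3, with 2.75, 3.39 and 4.47 at day 5. The largest step fell between day 2 and day 3, and no treated library reached day 0. On the deposited scale the log2 fold change was -0.29, -1.93 and -2.18 (standard error 0.147, adjusted p = 9.17e-09 at day 5 from limma), and -0.071, -1.15 and -1.11 after rescaling. GMPPA (chromosome 2 from 219498867 to 219506989 on the plus strand) was at 48.5, 42.7 and 48.8 TPM at day 0, 40.1, 44.3 and 40.4 at day 2, 13.6, 17.0 and 15.1 at day 3, with 9.08, 9.51 and 13.4 at day 5. It overlapped day 0 at day 2 and lay far below it afterwards. limma put the log2 fold change at -0.16, -1.56 and -2.05, and 0.067, -0.72 and -0.88 after rescaling.

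PMM2 and PMM1 are paralogous phosphomannomutases, of which PMM2 is the one known to be needed for N-glycosylation. PMM2 (chromosome 16 from 8788823 to 8849331 on the plus strand) was at 41.3, 39.9 and 39.2 TPM at day 0, 24.7, 28.8 and 30.0 at day 2, 13.0, 15.2 and 11.3 at day 3, with 7.34, 7.06 and 11.9 at day 5. Each later group lay below day 0, with H12 the highest library of day 5. In log2 units the change against day 0 was -0.52, -1.54 and -2.11 (standard error 0.163), and -0.29, -0.71 and -0.96 after rescaling. The day 2 call, with an adjusted p of 0.0198 from limma, was lost without library H1 or H4, at -0.50 and -0.44. PMM1 was at 8.55, 10.9 and 9.50 TPM at day 0 and 5.62, 6.12 and 7.52 at day 5, a log2 fold change of -0.52 that was lost as a call without H2, H10 or H11, at -0.50 to -0.44. MPI, which turns fructose 6-phosphate into mannose 6-phosphate, was at 37.7, 36.6 and 36.6 TPM at day 0, 43.7, 45.3 and 46.1 at day 2, 21.1, 26.4 and 20.1 at day 3, with 13.6, 14.9 and 15.5 at day 5. All day 2 libraries of MPI lay above day 0 and all later ones below. Its log2 fold change was 0.28, -0.70 and -1.28, and 0.50, 0.14 and -0.10 after rescaling, where it was called higher at day 2.

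The hexosamine pathway makes UDP-GlcNAc in 4 steps, and its genes followed 3 different courses. GFPT1 (GRCh38, chromosome 2 from 69319769 to 69387254 on the minus strand), the rate-limiting first enzyme, was at 85.2, 83.8 and 86.2 TPM at day 0, 66.8, 69.1 and 67.4 at day 2, 23.9, 30.3 and 22.4 at day 3, with 19.0, 21.0 and 31.0 at day 5. Its largest step lay between day 2 and day 3, and day 5 overlapped day 3. The fitted log2 changes were -0.32, -1.71 and -1.84 (standard error 0.151, adjusted p = 6.41e-08 at day 5 from limma), and -0.094, -0.86 and -0.64 after rescaling. GNPNAT1 (chromosome 14 from 52775194 to 52791668 on the minus strand), the acetyltransferase of the second step, was at 34.8, 37.2 and 36.1 TPM at day 0, 22.1, 19.2 and 24.0 at day 2, 13.1, 15.5 and 14.1 at day 3, with 8.004, 8.71 and 8.46 at day 5. Its groups did not overlap one another, and it had the largest fall of the 32 genes at day 2. As log2 fold changes these were -0.71, -1.29 and -1.98 (standard error 0.105, adjusted p = 1.20e-04 at day 2 from limma), and -0.48, -0.45 and -0.83 after rescaling.

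PGM3, the mutase of the third step, was above day 0 at day 2 and was called lower at day 3 and day 5. It was at 20.4, 17.3 and 17.3 TPM at day 0, 26.5, 24.9 and 24.7 at day 2, 11.6, 10.6 and 12.7 at day 3, with 7.17, 8.10 and 9.85 at day 5. All day 2 libraries lay above and all later libraries below day 0. This gave log2 fold changes of 0.45, -0.61 and -1.05, where the day 2 value missed the fold threshold (adjusted p = 0.00850 from limma) and was called without library H1, at 0.53. After rescaling PGM3 was called higher at day 2, at 0.66, and at day 3 and day 5 it was at 0.20 and 0.082. UAP1 (chromosome 1 from 162561506 to 162599842 on the plus strand), which makes UDP-GlcNAc itself, was by far the most abundant of the 32 genes, at rank 86 of all features at day 0. It was at 2116, 2250.4 and 2234 TPM at day 0, 1709, 1619.8 and 1793 at day 2, 2224, 1996 and 2339 at day 3, with 1479, 1328 and 1214 at day 5. The libraries lay below day 0 at day 2, overlapped it at day 3, and were lowest at day 5. The log2 fold change was -0.37, -0.012 and -0.72 (standard error 0.0796), and -0.13, 0.86 and 0.51 after rescaling. A same-strand feature within UAP1, AL596325.2, was at 2.49 to 4.91 TPM at day 0.

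UAP1 alone set most of the total of these genes. The TPM of all 32 summed to 3435 ± 77.9 at day 0 and 2053 ± 85.8 at day 5, and without UAP1 to 1235 ± 23.3 and 713 ± 48.97 (SD, n = 3). The sums at day 5 as a share of day 0 were thus 0.598 with and 0.577 without UAP1. By role, this ratio was 0.321 for dolichol synthesis, 0.489 for cytosolic assembly, 0.396 for the luminal glucosyltransferases, 0.288 for mannose supply, and 0.590 for the hexosamine pathway, or 0.290 without UAP1.

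**Figure D3:**
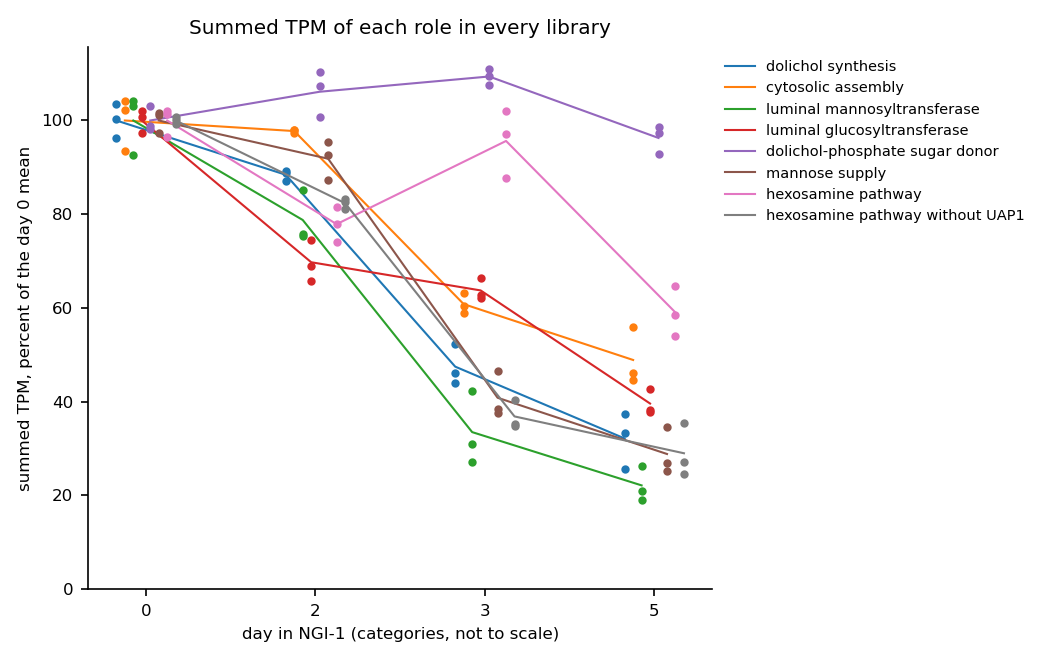
Summed TPM of each role in every library as a percentage of its day 0 mean (y axis, from 0) by day in NGI-1. Lines join the group means. The dolichol-phosphate sugar donors end near their day 0 level (ratio 0.963), the hexosamine pathway with UAP1 at 0.590, and the luminal mannosyltransferases lowest, at 0.221.

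The ratio of 2 genes within a library does not depend on the scaling of that library, so partners were also compared with each other. The 7 pairs of subunits or paralogs were chosen after the values were seen, a choice that the adjustment below does not correct for. Treated and day 0 libraries were compared by enumerating all 220 choices of 3 libraries (a two-sided exact permutation test), with Benjamini-Hochberg adjustment over the 7 pairs. DPM3 rose relative to DPM1, with a log2 ratio of -1.24 ± 0.213 at day 0 and -0.57 ± 0.216, -0.74 ± 0.166 and -0.47 ± 0.339 at day 2, day 3 and day 5 (SD, n = 3). The 9 treated libraries were 0.64 higher (exact permutation p = 0.00455, the smallest this design allows, adjusted p = 0.0159). DPM2 fell relative to DPM1, from -2.42 ± 0.258 to -2.66 ± 0.201, -4.09 ± 0.170 and -4.17 ± 0.342 (SD, n = 3). This is a difference of -1.22 (exact permutation p = 0.0273, adjusted p = 0.0318), and its raw p was not below 0.05 without library H1. Most of the DPM2 step lay after day 2.

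The lead of PMM2 over PMM1 shrank on each later day, and PMM2 remained above PMM1 in every library. The log2 ratio was 2.06 ± 0.200 at day 0, 1.45 ± 0.0611 at day 2, 0.90 ± 0.187 at day 3 and 0.42 ± 0.226 on day 5 (SD, n = 3), with no overlap between groups. The treated libraries were lower by 1.14 (treated minus day 0 of -1.14, exact permutation p = 0.00455, adjusted p = 0.0159). ALG14 rose relative to ALG13, from -3.18 ± 0.955 at day 0 to -1.68 ± 0.646, -1.95 ± 0.222 and -1.85 ± 0.422 (SD, n = 3). The difference was 1.35 (exact permutation p = 0.0182, adjusted p = 0.0318), and its raw p was not below 0.05 without H1 or H3. Smaller differences were found for NUS1 over DHDDS, at -0.30 (exact permutation p = 0.0182, adjusted p = 0.0318), and GMPPB over GMPPA, at -0.34 (exact permutation p = 0.0273, adjusted p = 0.0318). The raw p of the first was not below 0.05 without H2, and that of the second without any 1 of the day 0 libraries. ALG10B over ALG10 differed by 0.37, with an exact permutation p of 0.15.

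**Figure D4:**
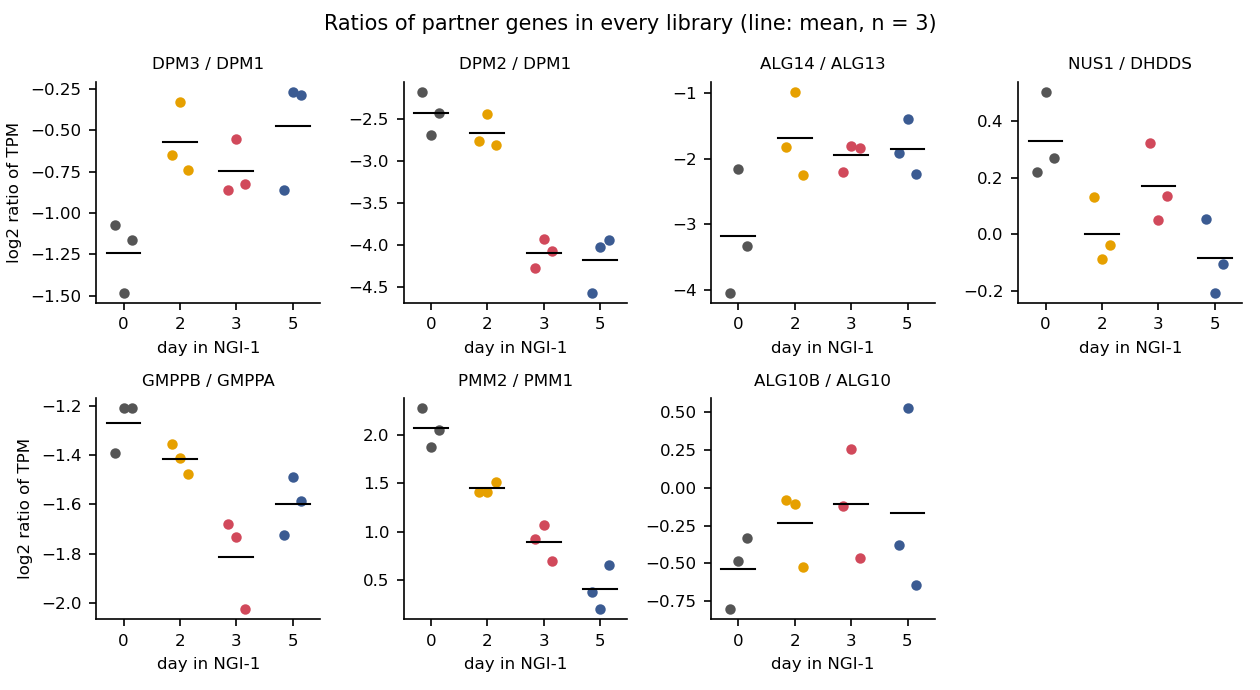
Log2 ratio of TPM (y axis, a separate range in each panel) between partner genes in every library by day in NGI-1, with the group mean as a line (n = 3). DPM3 over DPM1 and ALG14 over ALG13 are lowest at day 0, and PMM2 over PMM1 falls from 2.06 at day 0 to 0.42 at day 5.

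Consecutive treated days were compared next. From day 2 to day 3, limma called 20 of the 32 genes lower and 0 higher on the deposited scale (55.5% and 3.22% of all features), and 2 were higher at an unadjusted p under 0.05. The median of the 32 genes was -0.60, near the -0.57 of all features. After rescaling 6 were lower and 6 higher (13.6% and 14.3%), and the median was -0.022. Those called lower on both scales were ALG3 (-1.12), ALG9 (-1.48), DPAGT1 (-1.39), GFPT1 (-1.39), GMPPA (-1.40) and GMPPB (-1.64, log2 fold changes on the deposited scale). By role they belong to cytosolic assembly, the hexosamine pathway, mannose supply and the luminal mannosyltransferases. The share of all features called lower on both scales was not counted, so no pattern over the pathway is read from these genes. From day 3 to day 5, 11 were lower and 0 higher (13.1% and 0.67% of all features), with 0 higher at an unadjusted p under 0.05. This count was 5 without library H8, 6 without H10 and 17 without H12. Of all 11939 features, 1565 were called lower with all libraries and 952, 906 and 3016 in these fits, so the swing was shared by all features. After rescaling limma called 0 lower and 0 higher (2.03% and 4.43%), with 6 and 3 at an unadjusted p under 0.05.

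Between day 2 and day 5 the deposited scale gave 25 lower and 0 higher calls (69.8% and 4.35% of all features), with 0 higher at an unadjusted p under 0.05 from limma. After rescaling 11 were lower and 7 higher (18.1% and 19.0%). The 11 genes lower on both scales included MPI (-1.56) and PGM3 (-1.50), which had been above day 0 at day 2, beside DHDDS, NUS1, PMM2 and the 6 genes of the earlier step. At day 2 the count of genes called lower against day 0 was 3 with all libraries and 5 without library H6. Over all features it was 2774 and 2638.

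**Figure D5:**
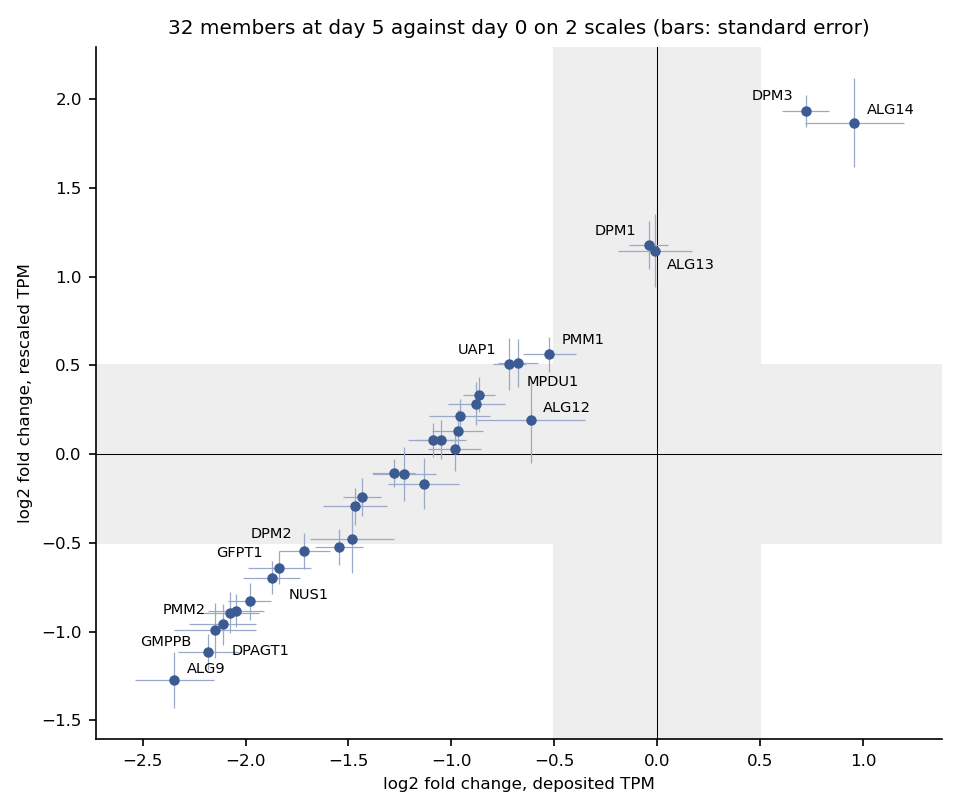
Log2 fold change of the 32 genes at day 5 against day 0 on the deposited scale (x axis) and after rescaling (y axis), with standard errors. Grey bands mark changes of at most 0.5. DPM3 and ALG14 are above 0.5 on both axes, ALG9 is lowest on both at -2.35 and -1.27, and UAP1, MPDU1 and PMM1 are negative on the x axis and positive on the y axis.

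Genes next to this pathway were counted for comparison. Of 30 genes listed for the mevalonate route to dolichol, hexose supply, related steps and other nucleotide sugars, 29 were tested. On the deposited scale 4 (13.8%), 23 (79.3%) and 23 (79.3%) were called lower on the 3 days, against 23.2%, 61.5% and 69.8% of all features, and 0 higher on each, with 0, 1 and 2 higher at an unadjusted p under 0.05 from limma. After rescaling, 7 were lower (24.1%) and 5 higher (17.2%) at day 5, against 26.9% and 27.5%. The largest fall at day 5 was in GPI, the enzyme that interconverts glucose and fructose 6-phosphate, which was at -3.11 on the deposited log2 scale and at -1.90 once rescaled. The largest rise was that of IDI1, the isopentenyl diphosphate isomerase of the mevalonate route, at 0.32, under the threshold for a call, and it was called after rescaling, at 1.52. GFPT2, the paralog of GFPT1, was at 0.106 to 0.145 TPM at day 0 and was not tested. Of the 12 OST subunits, 0, 4 (33.3%) and 6 (50%) were called lower on the 3 days, against the same 23.2%, 61.5% and 69.8% of all features. The 1 called higher was DDOST at day 2 and TUSC3 at day 3 and day 5. Log2 fold changes at day 5 lay between -1.76 and the 0.93 of TUSC3. TUSC3 was at 0.131 to 0.231 TPM at day 0 and reached 1 TPM in treated libraries only. It thus passed the filter only through groups where it was high, and its calls are not taken as a result. No OST subunit was lower at day 2 at an unadjusted p under 0.05 from limma. After rescaling 1 of the 12, TUSC3 still counted among them, was called lower (8.33%) and 8 higher (66.7%) at day 5. The shares of all features were 26.9% and 27.5%. The median log2 fold change at day 5 of the 12 subunits, TUSC3 included, was -0.49. It was -1.18 for the 32 genes that supply their substrate and -0.99 for all features, and this difference was not tested.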

How the data were processed

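Total RNA (200 ng per library) of 12 libraries was sequenced to more than 60 M read pairs each. The submitters' notes name FastQC, Trimmomatic, STAR and Salmon and the build hg38, and their versions and the strand setting are not given in the sources used here. The authors deposited log2(TPM + 1) values per gene for each library, which were turned back into TPM for levels. TPM holds no counts, so depth per value is unknown and no count test was run. Groups come from the labels, and replicate numbers were assigned in accession order.

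Features with at least 1 TPM in at least 3 libraries were fitted with limma 3.58.1 in R 4.3.3, in 1 model over the 4 groups with a trended variance, as the moderated test with Benjamini-Hochberg adjustment over all features of a contrast. A call needed an adjusted p below 0.05 and a log2 fold change above 0.5 in size, on the log2(TPM + 1) scale, which understates changes of low genes. The script was tested on simulated data. Rescaled values were the TPM divided by 1 factor per library, set by the median log2 ratio over features of at least 10 TPM on average, then log2(value + 1). Identifiers, positions and overlaps come from GENCODE release 29 on GRCh38. The 32 genes, the lists and the tests were chosen with earlier results of these data known. By the rule for names, all 32 genes are named against day 0, between treated days those called on both scales, and outside the pathway the largest fall and rise with GFPT2. Some values that the rule covers are not reported here. The partner pairs, the line identity genes, the overlapping genes and the names of DDOST and TUSC3 were added after the values were seen. Alternatives were the filter, pseudocount, scaling, fold threshold, leaving out the 20 most abundant features or each library, and fits of 2 groups only.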

Additional observations from a re-analysis of the deposited data

Results flagged for a closer look

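Levels that differ between 2 treated days were looked for with the limma contrast of day 5 against day 2, which tests the difference between the days itself. No untreated library of these days was used, so NGI-1 and time in culture cannot be told apart in it. A gene is listed where the contrast was called in the same direction on the deposited scale and after rescaling, which held for 11 of the 32 genes, all of them lower at day 5. Of all features, 69.8% were called lower in this contrast on the deposited scale and 18.1% after rescaling. The share of all features called lower on both scales was not counted, so the 11 have no matching background. In mannose supply the log2 fold changes on the deposited scale were -1.89 for GMPPB, -1.89 for GMPPA, -1.59 for PMM2 and -1.56 for MPI. In the luminal mannosyltransferases they were -1.87 for ALG9 and -1.76 for ALG3, and in the hexosamine pathway -1.51 for GFPT1 and -1.50 for PGM3. DPAGT1 was at -1.67, NUS1 at -1.62 and DHDDS at -1.53. After rescaling the same genes ran from -1.04 for GMPPB to -0.55 for GFPT1. MPI and PGM3 are the 2 of these genes that, beside DHDDS, had all day 2 libraries above day 0. The part of library composition in these values was not tested, and ribosomal protein genes took 33.8% of the TPM at day 2 and 48.6% at day 5.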

How the results depend on the processing

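TPM is a share of the library, so the change of each gene rests on how the libraries are scaled, and at most 3 libraries stand behind a mean. All comparisons with day 0 share those libraries, and time in culture and NGI-1 cannot be told apart. No paired analysis was possible because the labels give the replicates no numbers of their own.

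Rescaling changed the counts of calls in each comparison. The counts of the 32 genes called lower became 0, 9 and 11 at day 2, day 3 and day 5 and those called higher 5, 5 and 7. From day 2 to day 3 they became 6 lower and 6 higher, from day 3 to day 5 0 lower, and from day 2 to day 5 11 lower and 7 higher. The median of the 32 genes minus that of all features was -0.033, 0.054 and -0.19 on the 3 days as reported, and 0.17 at day 3, -0.090 at day 5 and -0.14 from day 2 to day 5 after rescaling. The log2 fold changes that turned positive, with calls for UAP1 at day 3 and for ALG13, DPM1, MPDU1, PMM1 and UAP1 at day 5, were at day 2 DOLK 0.19, ALG13 0.11, ALG1 0.18, ALG10B 0.020, DPM1 0.19 and GMPPA 0.067. At day 3 they were SRD5A3 0.15, DOLK 0.21, ALG1 0.25, ALG2 0.16, ALG11 0.27, ALG6 0.45, ALG8 0.17, ALG10B 0.12, ALG5 0.41, MPDU1 0.21, MPI 0.14, PMM1 0.37, PGM3 0.20 and UAP1 0.86, and at day 5 DOLK 0.031, ALG13 1.15, ALG1 0.079, ALG2 0.22, ALG11 0.13, ALG12 0.19, ALG6 0.28, DPM1 1.18, ALG5 0.34, MPDU1 0.52, PMM1 0.56, PGM3 0.082 and UAP1 0.51. This follows from the factors, which were higher for day 0 than for the later days.

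Without the 20 most abundant features, 1 gene was called lower at day 2 and 13 at day 3, and 1 was called higher from day 2 to day 3. Of the 11919 features tested, 2201 and 6223 were then called lower, and 619 higher from day 2 to day 3. The changes that turned positive were then DOLK 0.074, ALG1 0.051 and DPM1 0.054 at day 2, UAP1 0.24 at day 3, and ALG13 0.30 and DPM1 0.28 at day 5. A fold threshold of 1 on the log2 scale gave 0 lower calls at day 2 and 12 at day 3, with 1 higher call on each, and 0 higher calls at day 5. It left 10 lower from day 2 to day 3 and 0 lower from day 3 to day 5. Calls over all features at the fold threshold of 1 were not counted. At the threshold of 0.5, the lower count from day 3 to day 5 was 7 without the filter (1172 of 27655 features). It was also 7 in a fit of those 2 groups alone (981 of 11939). Without the filter, unexpressed features with no change enter the median of all features, and the difference of medians became -0.21, -0.64 and -1.13 on the 3 days, -0.55 from day 2 to day 3, -0.41 from day 3 to day 5 and -0.99 from day 2 to day 5. With a minimum of 5 TPM it was 0.21 at day 3, -0.023 at day 5, 0.098 from day 2 to day 3 and -0.072 from day 2 to day 5. A pseudocount of 0.1 gave 0.18, -0.11 and 0.057 for the first 3 of these, and the cause was not tested.

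Leaving out 1 library at a time gave these ranges. The genes called lower numbered 3 to 5 at day 2, 21 to 24 at day 3, 26 to 28 at day 5, 17 to 21 from day 2 to day 3, 5 to 17 from day 3 to day 5 and 24 to 26 from day 2 to day 5. The lowest 5 of the day 3 to day 5 count was without library H8 and the highest 17 without H12. Over all features this count was 952 without H8 and 3016 without H12, against 1565 with all libraries. The genes called higher numbered 2 to 3 at day 2 and 2 at day 3 and day 5. The direction turned in some of these fits for DOLK at day 2 from -0.10 to 0.12, ALG13 at day 2 from -0.23 to 0.025, ALG1 at day 2 from -0.10 to 0.024, ALG12 at day 2 from -0.24 to 0.31, DPM1 at day 2 from -0.11 to 0.057, UAP1 at day 3 from -0.062 to 0.052 and ALG13 at day 5 from -0.13 to 0.12, none of them a call with all libraries.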

Other observations

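Length and base composition of the genes were set beside their changes as a description. Across the 32 genes, Pearson's r between the log2 fold change on the deposited scale and the log2 length of the longest coding transcript (GENCODE release 29) was 0.028 at day 2, -0.195 at day 3 and -0.19 at day 5. The values for GC content were 0.095, -0.20 and -0.082. Genes share libraries and are not independent.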
